A study of Mus musculus with 18 samples.

Results

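Cyclic AMP (cAMP) genes were followed here in cultured fibroblasts of the mouse mammary gland. The group was defined by gene symbol and holds the adrenergic receptors that act through Gs or Gi, the alpha subunits of the G proteins Gs and Gi, the adenylyl cyclases, the phosphodiesterases, the regulatory and catalytic subunits of protein kinase A (PKA), the transcription factors Crem and Creb1, and the Nr4a nuclear receptors. It counted 53 genes of the 55486 in the table, of which 41 passed the filter on low counts. These families were selected on symbols but with earlier results of the same libraries in view, namely the level of Adra2a after tumour medium in CD26+ cells and the unequal change of Gnai1 between the cell types. Both genes are therefore described by their values, with no test of those changes, and the counts of members below are descriptions of a chosen group.

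Normal fibroblasts (NFs) of female FVB/n mice had been sorted into CD26- and CD26+ cells, CD26 being the surface peptidase encoded by Dpp4, and the sorted cells then spent 7 days in either control conditioned medium or the medium of tumour cells (tumour CM). The tumour cells were 6 lines of invasive lobular carcinoma from a mouse model in which Wap-Cre, a driver active in mammary epithelium, deletes floxed alleles, Cdh1 among them. The 4 groups thus share the FVB/n background and differ in cell type and medium. Each cell type gave 3 control libraries, and 6 tumour CM libraries with 1 per line (10/221, 13/17, 13/44, 13/90, 13/138 and 18/12), so that a line was not repeated within a cell type. Fibroblasts from several mice were pooled at the sort, and nothing says that the control cultures came from separate sorts, so the p-values measure the spread between cultures, which may be technical.

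The 18 libraries held 9725723 to 14585349 counts. All 9 fibroblast markers were detected in every group, while Dpp4 had 0 to 2 counts per library in both control groups. In tumour CM it had 1 to 11 counts per library in CD26- and 8 to 104 in CD26+ NFs, so the labels describe the cells at the sort. Epithelial markers, all 12 of them detected in each group, summed to 4561 to 5091 CPM (counts scaled to 1000000 per library) in CD26- control libraries and 2835 to 4684 CPM in CD26- tumour CM libraries. In CD26+ NFs that sum was 754 to 1357 CPM in control and 675 to 1624 CPM in tumour CM. Other lists moved with tumour CM too. In CD26+ NFs the immune sum was 24.4 to 30.2 CPM in control and 31.2 to 44.2 CPM in tumour CM. The Schwann and nerve sum was 307 to 323 CPM and 213 to 298 CPM in those groups. In CD26- NFs the mural and smooth muscle sum was 201 to 215 CPM in control and 90.7 to 203 CPM in tumour CM. The 7 adipocyte markers summed to 175 to 198 CPM in control and 233 to 534 CPM in tumour CM in CD26- NFs, and to 733 to 805 and 1210 to 1769 CPM in CD26+ NFs. Lpl made up most of these sums, with means of 157 and 298 CPM in CD26- and 713 and 1344 CPM in CD26+ NFs. The means of Fabp4 and Plin1 were also higher in tumour CM in both cell types. Those of Pparg and Adipoq were lower in both, and that of Cidec was lower in CD26+ NFs. The fibroblast sum went from 62522 to 79501 CPM in CD26+ control to 29191 to 52131 CPM in tumour CM. That fall lay in Col1a1, Col1a2, Col3a1 and Vim, with Col3a1 going from a mean of 23468 to 6633 CPM. The means of Pdgfra, Pdgfrb, Thy1, Dcn and Lum were higher in tumour CM, Dcn at 390 and 3566 CPM. Of the 7 skeletal muscle markers 1 reached a mean of 1 CPM in CD26- control and 5 in CD26- tumour CM, where Myog and Myh3 had means of 5.36 and 14.1 CPM, beside 0.179 and 0.590 in control. Acta1, the highest of that list, went the other way in CD26- NFs, from a mean of 63.0 to 48.5 CPM. The skeletal muscle sums overlapped, at 48.3 to 75.4 CPM in CD26- control and 47.0 to 115 CPM in CD26- tumour CM. The part of these lists in the effects of tumour CM below was not tested. The CD26+ culture with CM of line 13/138 differed from the other 5 CD26+ tumour CM cultures by a chi-square per degree of freedom over genes of 20.5 to 55.0, against 4.39 to 26.2 among those 5. Without it the members called for the difference in CM effect numbered 5 in place of 2, and the other counts stayed within 1.5 times. In bulk cultures, fewer cells of a kind and less RNA per cell cannot be told apart.

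As background, adenylyl cyclases make cAMP from ATP when receptors coupled to Gs are occupied, and receptors coupled to Gi, such as the alpha-2 adrenergic receptors, restrain them. Phosphodiesterases break the messenger down. When cAMP binds the regulatory subunits of PKA, the catalytic subunits are set free and phosphorylate targets that include CREB family factors, which act at the cAMP response element in promoters. Genes of the Nr4a family, short-lived nuclear receptors, and Crem are well-known early targets of this route, and several phosphodiesterase genes answer to it as a feedback. In fibroblasts cAMP is best known for opposing contraction and matrix production.

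The promoters of the 3 Nr4a genes are shown because each holds at least 4 copies of a motif defined below. They were thus picked by their sequence. All 3 genes also differed among tumour lines, as described below. The full cAMP response element (TGACGTCA, the same on both strands) and its 5-base core motif (TGACG, or CGTCA on the other strand; every full element contains a core motif on each strand) were searched in RefSeq promoters of GRCm38.p6, each running from 250 bases before to 50 bases after a start. Promoters were found for 41 of the 53 members. The members had more promoters per gene than all genes, 81 for 41 genes against 32851 for 27025, so shares are given per promoter. A core motif was present in 24 of the 81 (29.6%), against 20.8% of all promoters, and a full element in 2, both of Prkar1a, or 2.47% against 1.79%. At least 4 core motifs, a threshold set after the sequences were seen, occurred in 3 of the 81, 1 each of Nr4a1, Nr4a2 and Nr4a3, and in 0.231% of all promoters. In the stretches below, printed 5′ to 3′ on the gene's strand, capitals mark the core motifs.
Nr4a1 (chr15:101266603-101266820, plus strand): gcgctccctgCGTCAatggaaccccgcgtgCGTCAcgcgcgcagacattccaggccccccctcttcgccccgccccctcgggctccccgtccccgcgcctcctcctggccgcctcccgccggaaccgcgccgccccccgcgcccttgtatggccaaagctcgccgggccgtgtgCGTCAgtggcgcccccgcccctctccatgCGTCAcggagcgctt
Nr4a2 (chr2:57124100-57124213, minus strand): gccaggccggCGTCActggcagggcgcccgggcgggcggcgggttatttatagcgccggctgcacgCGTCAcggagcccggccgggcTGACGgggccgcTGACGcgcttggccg
Nr4a3 (chr4:48045064-48045172, plus strand): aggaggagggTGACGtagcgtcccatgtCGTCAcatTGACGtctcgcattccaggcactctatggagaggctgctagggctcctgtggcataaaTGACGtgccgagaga
The Nr4a1 stretch runs from base -243 to base -26 relative to the start, that of Nr4a2 from -210 to -97 and that of Nr4a3 from -241 to -133. No GENCODE M21 exon overlapped the first 2 stretches, while the last 20 bases of the Nr4a3 stretch, with its last core motif, lie in the untranslated first exon of another Nr4a3 transcript. A match of letters describes the sequence and does not show binding.

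Levels between genes were compared per length, as CPM per kilobase of exon (CPM per kb). In control CD26- NFs the Gi alpha genes Gnai2 (136 CPM per kb) and Gnai3 (105) and the PKA subunit genes Prkar1a (122), Prkaca (38.1) and Prkar2a (33.0) had the highest levels among the members. Adcy6, at 15.2 CPM per kb, made up 47.4% ± 0.862 (SD, n = 3) of the summed adenylyl cyclase level, and Adcy7 27.9% ± 2.81 (SD, n = 3). Pde8a (10.9 CPM per kb), Pde3a (8.20), Pde7a (7.76), Pde4b (7.24) and Pde4d (6.75) led the phosphodiesterases. Gnas, which encodes Gs alpha, had only 36 to 98 counts per library. Of its exon bases 22.0% are shared with genes on the opposite strand, and the strand setting of the counting is not given in the sources used here, so its level is uncertain. The other 12 members were too low to test, namely Adcy8, Adcy10, Adra2b, Adra2c, Adrb1, Adrb3, Pde2a, Pde4c, Pde6a, Pde6b, Pde6c and Pde9a. Their highest library had 14 counts (Adcy8), and 7 of them had at most 3 counts in every library.

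The first comparison asked how CD26- NFs in tumour CM differed from the same cells in control medium. A change was called at an adjusted p under 0.05 by edgeR's quasi-likelihood test with Benjamini-Hochberg adjustment over the 14273 genes tested. Prkar2b and Prkar1b, both PKA regulatory subunits, and the dual cAMP and cGMP phosphodiesterase Pde11a rose, and the phosphodiesterases Pde8a, Pde3b and Pde7a fell. The alpha-2A adrenergic receptor Adra2a was lower. In all, 4 members rose, where 7.88% of all genes tested did, and 9 members, Adra2a counted, were lower, against 7.28% of all genes. None of the 41 passed the study's limits of an adjusted p under 0.05 and a log2 fold change past 2, which 0.904% of all genes did. The median log2 fold change of the members was -0.06, beside 0.01 over all genes.

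Prkar2b, the type II beta regulatory subunit, stood at 24.1, 26.4 and 27.9 CPM in the CD26- control libraries and at 40.5 to 72.3 CPM (median 63.1) in the 6 tumour CM libraries. Every tumour CM library was above every control. The log2 fold change was 1.20 ± 0.18 (SE; adjusted p = 0.00044, edgeR), a 2.30-fold rise. Prkar1b, a regulatory subunit best known from neurons, went from 11.4, 13.9 and 11.2 CPM to 17.3 to 31.6 CPM (median 26.6), again without overlap (log2 fold change 1.06 ± 0.18 SE, adjusted p = 0.00107, edgeR). Its exons share 8.95% of their bases with a gene on the same strand, Gm15672, that had 32 counts over all libraries. Pde11a was low, at 1.55, 1.20 and 1.35 CPM in control and 3.71 to 5.12 CPM (median 4.34) in tumour CM, a 3.19-fold rise (adjusted p = 0.00101, edgeR).

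Adra2a, the Gi-coupled receptor, had 2.32, 4.01 and 2.37 CPM in CD26- control libraries and 0.388 to 1.24 CPM (median 0.656) in tumour CM. The groups did not overlap, and the log2 fold change was -1.89 ± 0.29 (SE), given as a value with no test. Pde8a, a high-affinity cAMP phosphodiesterase, dropped from 43.8, 44.3 and 43.6 CPM to 22.0 to 31.4 CPM (median 27.1), a log2 fold change of -0.69 ± 0.14 (SE; adjusted p = 0.00301, edgeR). Pde3b, the cGMP-inhibited enzyme through which insulin acts in fat cells, dropped from 34.7, 37.2 and 41.5 CPM to 16.6 to 26 CPM (median 23.2; log2 fold change -0.77 ± 0.16 SE, adjusted p = 0.00406, edgeR). In both genes each tumour CM library lay below each control. Pde7a fell by 0.43 on the log2 scale and the calcium-stimulated cyclase Adcy1 by 0.91.

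A further 5 calls in CD26- NFs were close to the threshold. Pde8b (log2 fold change -1.03 ± 0.32 SE), Pde10a (-0.68 ± 0.22), Crem (-0.59 ± 0.17) and Prkar1a (-0.15 ± 0.04) were lower in tumour CM, and the catalytic subunit Prkaca (0.19 ± 0.06) was higher, with adjusted p between 0.0293 and 0.0454 by edgeR. These 5 calls were lost together, leaving 8 members, without any 1 of the 3 CD26- control libraries, without the library of line 10/221, or with the epithelial marker list as a covariate.

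In CD26+ NFs the same comparison called 9 members higher, where 15.2% of all genes were, and 12 lower, where 13.4% of all genes were. The 9 hold Gnai1 and the 12 hold Adra2a, from which nothing is read. Prkar2b, Prkar1b and Pde11a rose here too, and Pde1b, Pde3a, Pde4a, Adcy6 and Prkacb rose with them. Pde8a, Pde3b, Pde8b, Pde10a, Pde4b, Pde4d, Pde7a, Pde1a and Pde5a fell, so that 9 of the 16 phosphodiesterases tested were lower and 4 were higher. Several of the lower calls were lost when a single library was left out. The share of all genes called in such fits is not given here. Direction was kept in Pde4b and Pde4d, with log2 fold changes of -1.09 to -0.71 and -0.90 to -0.63 over the alternatives. Without CD26+ control replicate 12, 3 phosphodiesterases were called lower (Pde3b, Pde8a and Pde8b) and 3 higher (Pde1b, Pde3a and Pde11a), and the members called were 8 higher and 4 lower. They were 8 and 6 without control replicate 10, 7 and 6 without 11, and 8 and 5 without the library of line 10/221. Pde1b was past the study's limits, as were 2.01% of all genes. The value of Adra2a, which is also beyond those limits, was used to choose the members and is not read as a call. The comparisons within the 2 cell types used separate libraries but CM of the same 6 lines. Between them, 3 members were called higher in both, as were 4.13% of all genes tested, and 7, with Adra2a, lower in both, as were 2.41% of all genes.

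Prkar2b had 31.4, 31.8 and 25.7 CPM in CD26+ control libraries and 71.2 to 117 CPM (median 92.7) in tumour CM, a 3.20-fold rise (log2 fold change 1.68 ± 0.18 SE, adjusted p = 4.26e-06, edgeR). Prkar1b went from 11.8, 12.2 and 12.3 CPM to 23.0 to 39.0 CPM (median 33.7), a 2.65-fold rise (adjusted p = 2.06e-05, edgeR). Each was higher in 6 of 6 tumour CM libraries than in any control. The catalytic subunit Prkacb rose from 132, 132 and 135 CPM to 137 to 224 CPM (median 178), with a log2 fold change of 0.42 ± 0.11 (SE; adjusted p = 0.0106, edgeR). This call was lost, at an adjusted p of 0.0501 by edgeR, without CD26+ control replicate 11. Adcy6, the leading cyclase, rose slightly, from 129, 139 and 136 CPM to 149 to 182 CPM (median 163; log2 fold change 0.29 ± 0.06 SE, adjusted p = 0.00168, edgeR).

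Pde1b, a phosphodiesterase switched on by calcium and calmodulin, stood at 1.13, 1.11 and 1.19 CPM in CD26+ control libraries and at 3.65 to 9.32 CPM (median 6.59) in tumour CM. Its log2 fold change of 2.45 ± 0.34 (SE; adjusted p = 5.48e-05, edgeR) came from low counts. In CD26- NFs the gene went from 1.84, 1.88 and 1.49 CPM to 2.1 to 5.20 CPM (median 2.97), with no overlap but an adjusted p of 0.0639 (edgeR). Pde3a, the other cGMP-inhibited enzyme and the most abundant phosphodiesterase in tumour CM, rose in CD26+ NFs from 128, 132 and 135 CPM to 200 to 336 CPM (median 227; log2 fold change 0.89 ± 0.17 SE, adjusted p = 0.00111, edgeR). In CD26- NFs it stood at 103 to 106 CPM in control and 110 to 186 CPM in tumour CM (adjusted p = 0.071, edgeR). Its paralogue Pde3b fell in both cell types, in CD26+ NFs from 57.2, 58.7 and 60.3 CPM to 19.5 to 37.4 CPM (median 27.0; log2 fold change -1.10 ± 0.15 SE, adjusted p = 5.02e-05, edgeR).

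Pde8a in CD26+ NFs went from 89.9, 101 and 97.6 CPM to 36.8 to 63.3 CPM (median 51.7), a log2 fold change of -0.93 ± 0.13 (SE; adjusted p = 4.86e-05, edgeR). Pde8b, its lower relative, went from 5.02, 4.15 and 4.97 CPM to 0.606 to 3.22 CPM (median 1.42; adjusted p = 0.00493, edgeR). Neither gene's groups overlapped. Adra2a, described without a test, had 9.15, 9.70 and 10.8 CPM in CD26+ control libraries and 0.844 to 1.51 CPM (median 1.16) in tumour CM. Gnai1, likewise, had 16.9, 17.9 and 18.5 CPM in CD26+ control and 34.8 to 43.7 CPM (median 40.8) in tumour CM, while in CD26- NFs it stood at 32.7, 38.9 and 36.0 CPM and at 27.2 to 41.8 CPM (median 34.5). The CD26+ tumour CM values of Gnai1 thus lay among or above those of the CD26- groups.

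The cAMP-specific enzymes Pde4b and Pde4d fell in CD26+ NFs by 0.89 and 0.78 on the log2 scale (adjusted p = 0.0272 and 0.0278, edgeR), with wide ranges in tumour CM. Pde4b had 82.7, 88.1 and 84.2 CPM in control and 16.9 to 75.8 CPM (median 45.6) in tumour CM, and Pde4d 109, 130 and 115 CPM against 31.3 to 95.3 CPM (median 71.2). Both calls, with those of Adcy1, Gnai2, Pde1a and Pde4a, were lost without CD26+ control replicate 10, 11 or 12, or without the library of line 10/221. The number of members called was then 14, 13, 12 and 13, respectively, in place of 21. Creb1 and the Nr4a genes were not called in either cell type, and Crem was called in CD26- NFs only, without a test passed for a difference between the cell types (adjusted p = 0.29, edgeR).

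**Figure D1:**
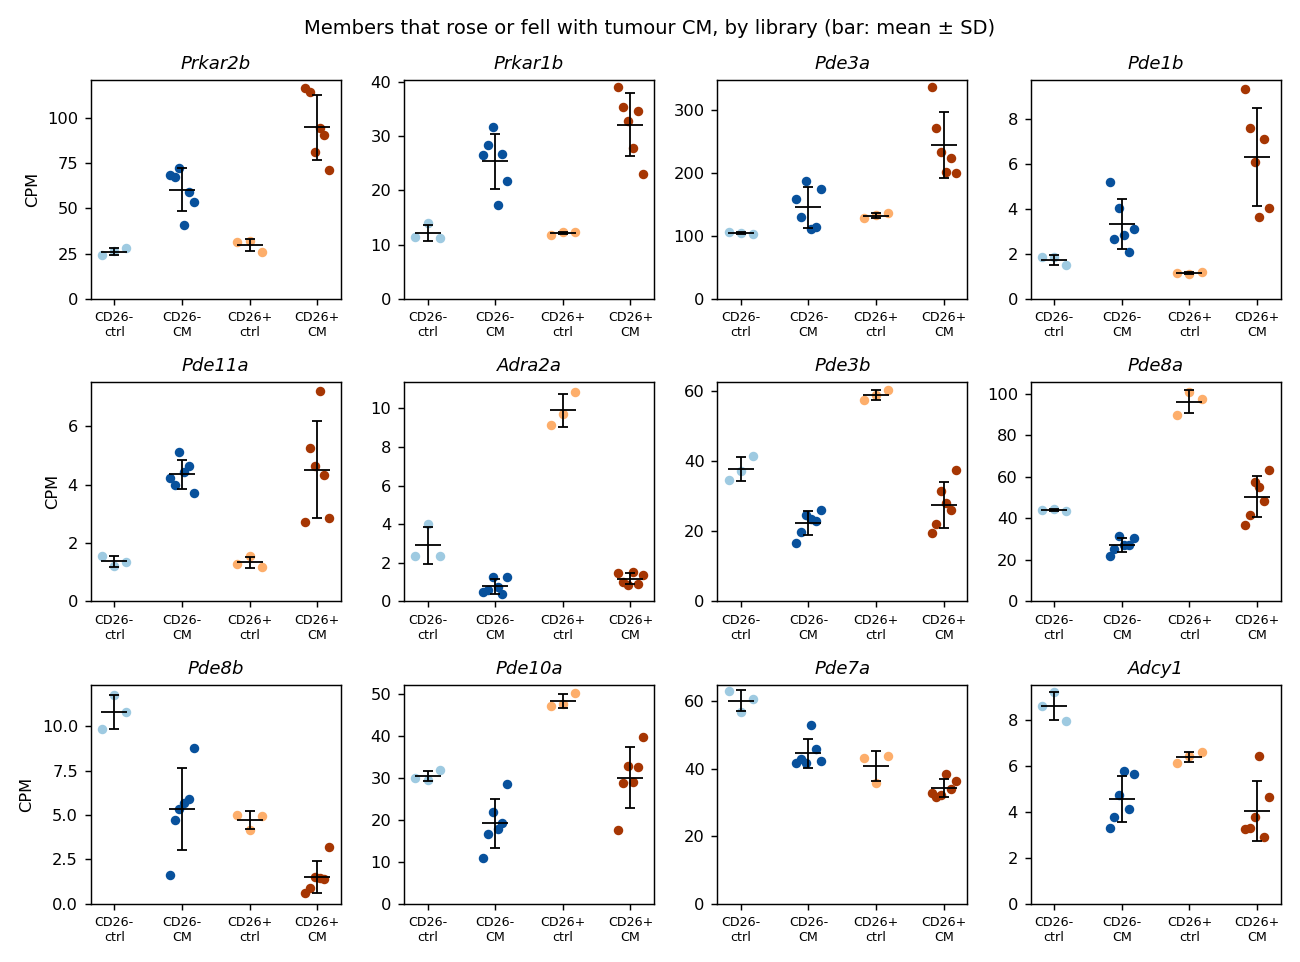
Levels in CPM (vertical axis, from 0) of 12 members in the 4 groups (horizontal axis); each point is a library and the bar and whiskers give mean ± SD (n = 3 control, n = 6 tumour CM). Prkar2b, Prkar1b and Pde11a are higher in every tumour CM library than in any control of the same cell type, and Adra2a, Pde3b, Pde8a, Pde8b and Pde10a are lower.

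**Figure D2:**
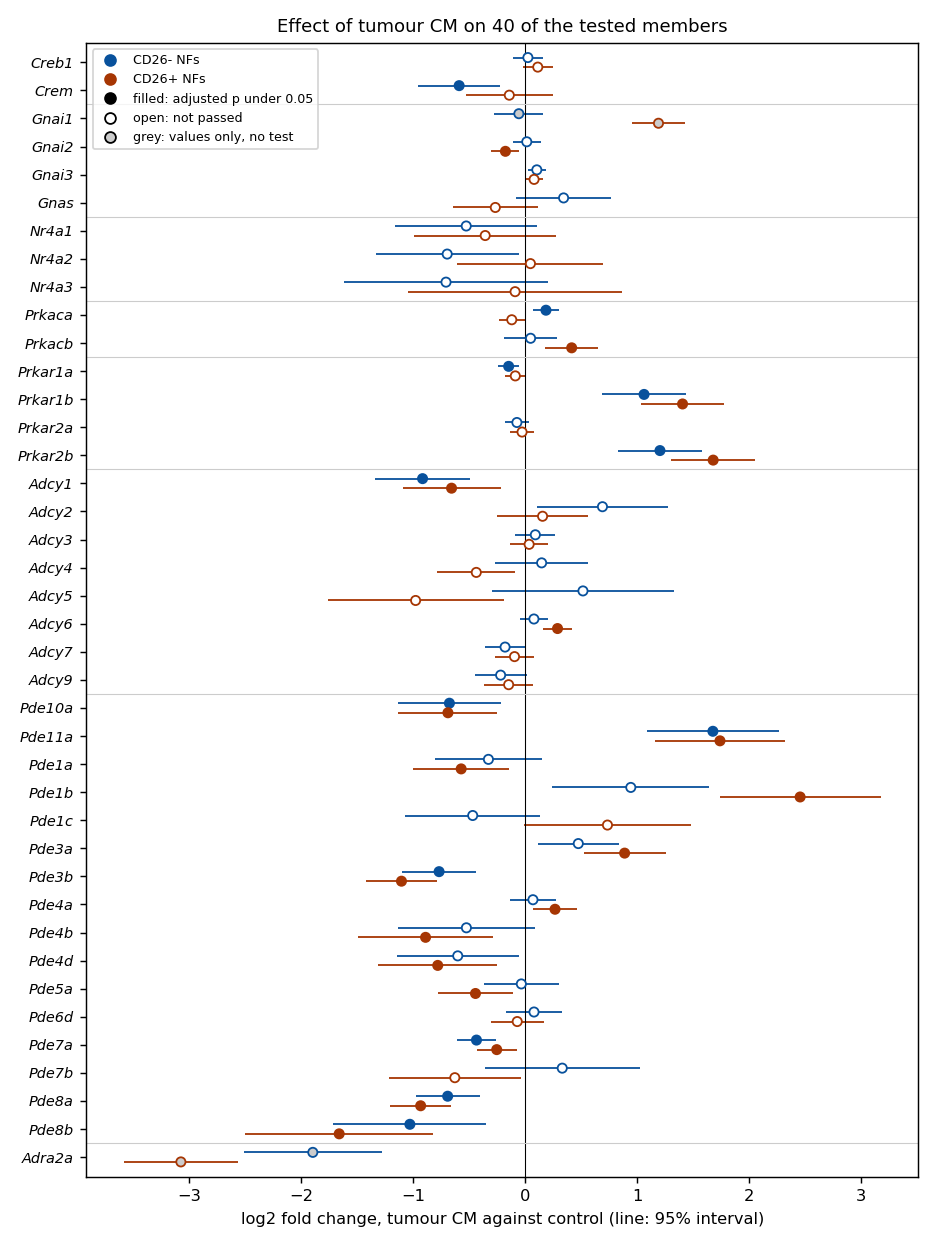
Log2 fold change, tumour CM against control (horizontal axis), of 40 tested members in CD26- (blue) and CD26+ NFs (brown), grouped by role, with 95% intervals; filled points had an adjusted p under 0.05 by edgeR and the grey points of Adra2a and Gnai1 carry no test. Prkar1b, Prkar2b and Pde11a lie right of 0 in both cell types and Pde3b, Pde8a, Pde8b and Pde10a left of it.

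The make-up of the phosphodiesterase family, described here without a test, differed between tumour CM and control. In CD26- NFs the higher level of Pde3a was not called, as given above. The summed phosphodiesterase level was 63.0 ± 1.33 CPM per kb (SD, n = 3) in CD26- control and 52.9 ± 6.11 (SD, n = 6) in tumour CM, and 93.2 ± 2.69 and 74.4 ± 6.70 in CD26+ NFs. The Pde3 pair held 19.6% ± 0.299 (SD, n = 3) of the sum in CD26- control and 26.1% ± 3.80 (SD, n = 6) in tumour CM. In CD26+ NFs the Pde3 share was 18.0% ± 0.455 and 30.2% ± 6.82, respectively, with its highest value, 41.9%, in a tumour CM library. The Pde8 pair went the other way, from 20.2% ± 0.741 to 14.4% ± 0.915 in CD26- and from 26.3% ± 0.701 to 17.0% ± 2.21 in CD26+ NFs. None of the Pde3 or Pde8 ranges in tumour CM overlapped the control range of the same cell type. The sum includes Pde5a, an enzyme for cGMP, and Pde6d, which binds prenylated proteins and is not a catalytic subunit.

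Among the PKA regulatory subunits Prkar1a was the main transcript throughout. It held 73.8% ± 0.498 (SD, n = 3) of the summed regulatory level in CD26- control and 67.0% ± 2.40 (SD, n = 6) in tumour CM, and 75.7% ± 0.601 and 65.1% ± 3.15 in CD26+ NFs. The share of Prkar2b was 4.32% ± 0.211 and 9.98% ± 1.82 in CD26- NFs, and 5.03% ± 0.608 and 14.6% ± 2.47 in CD26+ NFs. The ratio of summed regulatory to summed catalytic level was 3.32 ± 0.049 (SD, n = 3) in CD26- control and 2.97 ± 0.198 (SD, n = 6) in tumour CM, and 2.62 ± 0.021 and 2.81 ± 0.162 in CD26+ NFs, lower with tumour CM in the first and higher in the second, with no test made. These are shares of RNA, and protein was not measured.

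**Figure D3:**
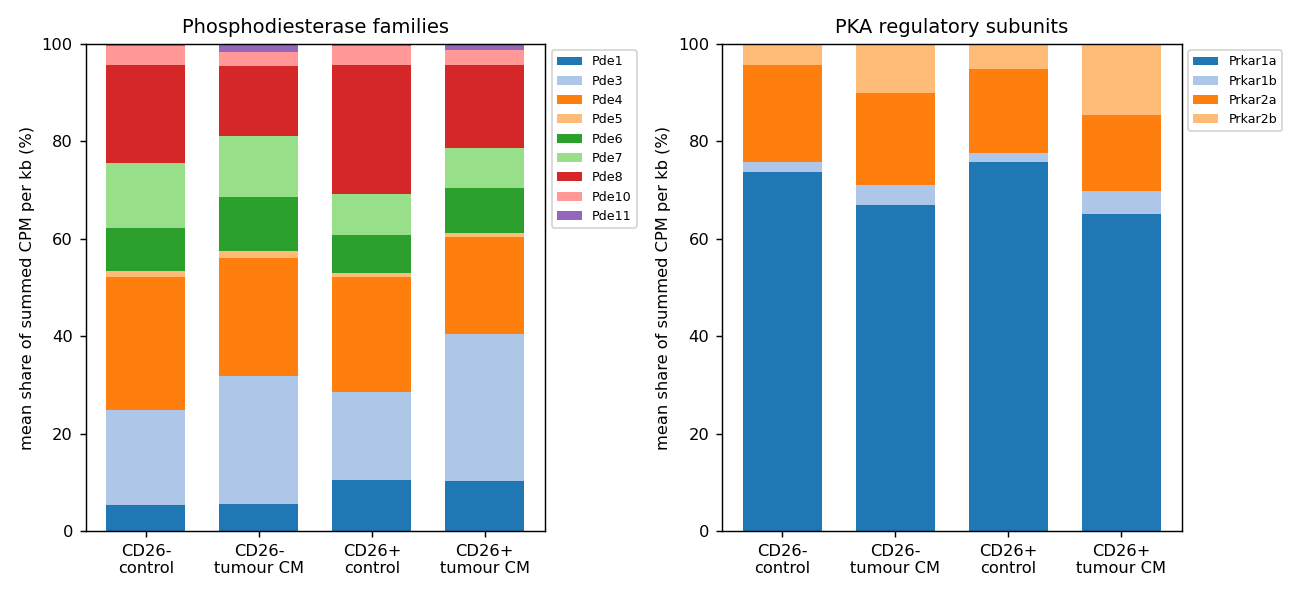
Mean share, in percent of summed CPM per kb (vertical axis), of each phosphodiesterase family (left; families above 0.5% in a group) and of each PKA regulatory subunit (right) in the 4 groups. The Pde3 share is 19.6% in CD26- control and 26.1% in CD26- tumour CM, and the Prkar2b share 5.03% in CD26+ control and 14.6% in CD26+ tumour CM.

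Whether tumour CM acted unequally on the cell types was tested as the difference of the 2 effects. Apart from Gnai1, 1 member, Prkaca, was called, in the negative direction, where 3.01% of all genes were. In the positive direction 4.53% of all genes were called, and nothing is read there from Gnai1, whose unequal change was used to choose the members. Past the study's limits were 0.392% of all genes and 0 members. Prkaca had 92.6, 94.9 and 97.0 CPM in CD26- control and 95.1 to 118 CPM in tumour CM, and 114, 118 and 115 CPM in CD26+ control and 102 to 117 CPM in tumour CM. The difference was -0.31 ± 0.08 on the log2 scale (SE; adjusted p = 0.0286, edgeR). That call was lost in 6 of 26 alternatives, among them the fits without control library 1 or 2 of CD26- NFs, or 11 or 12 of CD26+ NFs.

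Cultures given CM of the same line were paired across the cell types. With the line as a block, 13 members were called for the difference in CM effect, Adra2a and Gnai1 counted. Of these 6 were positive and 7 negative, where the same fit called 9.42% and 8.21% of all genes. Besides Prkaca and the values-only genes, they included Nr4a2 (0.74 ± 0.12 SE), Nr4a3 (0.68 ± 0.16), Pde1b (1.5 ± 0.38) and Prkacb (0.35 ± 0.11) on the side of CD26+ NFs. On the other side were Adcy5 (-1.53 ± 0.23), Pde7b (-0.97 ± 0.15), Pde3b (-0.35 ± 0.10), Pde8a (-0.25 ± 0.08) and Pde8b (-0.63 ± 0.20). The adjusted p of the genes named lay between 0.00102 and 0.0492 by edgeR with the block, and between 0.065 and 0.593 without it. Control libraries have no line, so the block leaves their own spread to the pooled estimate. Adcy5, a cyclase inhibited by Gi, had 5.42, 5.55 and 4.13 CPM in CD26- control and 3.60 to 11.3 CPM (median 6.95) in tumour CM, but 7.69, 8.74 and 7.2 CPM in CD26+ control and 1.74 to 7.15 CPM (median 3.90) in tumour CM.

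The cell types were then compared directly. In control medium 16 members were higher and 8 lower in CD26+ than in CD26- NFs, where 25% and 25.4% of all genes were. The 16 hold Adra2a and the 8 hold Gnai1, which are given by value. Of the adenylyl cyclases 5, Adcy2, Adcy3, Adcy4, Adcy6 and Adcy9, were higher in CD26+ NFs and 1, Adcy7, was lower. Both catalytic subunits of PKA were higher, and the regulatory subunit Prkar2a was lower. Adcy2 was among the 2 members that passed the study's limits, as did 5.97% of all genes. Epithelial markers moved with the cell type by the sums given above, so that list itself separates the cell types. The share of all genes called with it as a covariate is not given here. With the epithelial list as a covariate 8 of the 24 calls were left. Those were Adcy2, Adcy3, Adcy4, Pde1a, Pde7b and Pde8a, together with Gnai1 and Pde1c, from which nothing is read, Pde1c for its filter as given below. The fibroblast sum also differed between the control groups, at 16525 to 18490 CPM in CD26- and 62522 to 79501 CPM in CD26+ NFs, as did the adipocyte sum (175 to 198 and 733 to 805 CPM), the mural and smooth muscle sum (201 to 215 and 66.2 to 86.4 CPM) and the skeletal muscle sum (48.3 to 75.4 and 12.0 to 18.5 CPM). The part of these lists in the differences was not tested beyond the epithelial covariate.

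Adcy3, a cyclase known from olfactory neurons, had 23.9, 25.4 and 22.5 CPM in CD26- control and 53.2, 52.9 and 55.8 CPM in CD26+ control (log2 fold change 1.18 ± 0.10 SE, adjusted p = 5.15e-08, edgeR). Of its exon bases 22.1% are shared with Cenpo on the opposite strand, which had 2303 counts over all libraries. Adcy2 had 0.968, 1.20 and 1.02 CPM in CD26- control and 4.53, 4.89 and 6.31 CPM in CD26+ control, a 4.92-fold difference (adjusted p = 2.69e-06, edgeR). Adcy4 went from 2.71, 3.59 and 2.50 CPM to 8.50, 5.93 and 7.72 CPM (adjusted p = 4.36e-05, edgeR). The cyclase share of Adcy3 was 11.9% ± 0.642 (SD, n = 3) in CD26- and 20.6% ± 0.578 (SD, n = 3) in CD26+ control, that of Adcy7 27.9% ± 2.81 and 15.6% ± 0.914, and that of Adcy6 47.4% in both.

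Among the phosphodiesterases Pde8a (2.19-fold), Pde1a (3.22-fold) and Pde7b (3.92-fold) were higher in CD26+ control cultures (adjusted p = 1.06e-05, 2.61e-05 and 0.000182, edgeR). Pde1a had 16.7, 17.9 and 19.5 CPM in CD26- and 57.3, 60.1 and 57.1 CPM in CD26+ control, and Pde7b 8.23, 9.99 and 7.44 CPM against 31.8, 36.2 and 32.3 CPM. Pde7a was lower in CD26+ NFs, at 43.0, 35.8 and 43.6 CPM against 62.9, 56.7 and 60.6 CPM (log2 fold change -0.56 ± 0.10 SE, adjusted p = 0.000126, edgeR). Pde8b was also lower. Pde1c, at 0.880 to 0.968 CPM in CD26- and 0.223 to 0.486 CPM in CD26+ control, passed the filter on low counts only through the CD26- control libraries, so nothing is read from its place among the 8 lower members.

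Adra2a, described without a test, was higher in CD26+ control cultures, at 9.15 to 10.8 CPM beside 2.32 to 4.01 CPM in CD26- control. Crem, whose products include repressors of the cAMP response, had 17.8, 17.7 and 17.9 CPM in CD26- control and 10.5, 8.59 and 11.1 CPM in CD26+ control (adjusted p = 0.00286, edgeR).

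In tumour CM 17 members, Gnai1 counted, were higher and 9 lower in CD26+ than in CD26- NFs, against 29.3% of all genes in each direction, and 0 passed the study's limits, against 4.16%. Adcy3 (log2 fold change 1.12 ± 0.07 SE), Adcy2 (1.76 ± 0.18), Adcy6 (0.60 ± 0.05), Pde1a (1.44 ± 0.18) and Pde8a (0.89 ± 0.11) were higher, and they were the 5 calls left with the epithelial covariate. The share of all genes called with that covariate is likewise not given. Prkacb had 98.5 to 113 CPM (median 108) in CD26- and 137 to 224 CPM (median 178) in CD26+ tumour CM cultures, with no overlap (log2 fold change 0.73 ± 0.09 SE, adjusted p = 2.73e-06, edgeR). Gnai2 had 512 to 547 CPM (median 516) in CD26- and 369 to 453 CPM (median 405) in CD26+ cultures (log2 fold change -0.34 ± 0.05 SE, adjusted p = 1.07e-05, edgeR). These comparisons share their libraries with those of the CM effects, and their calls do not add to them. With the line as a block, Nr4a2, Pde3b, Pde4b, Pde4d and Pde6d joined, for 31 calls, 21 higher and 10 lower, where 31.6% and 31.4% of all genes were called in that fit.

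**Figure D4:**
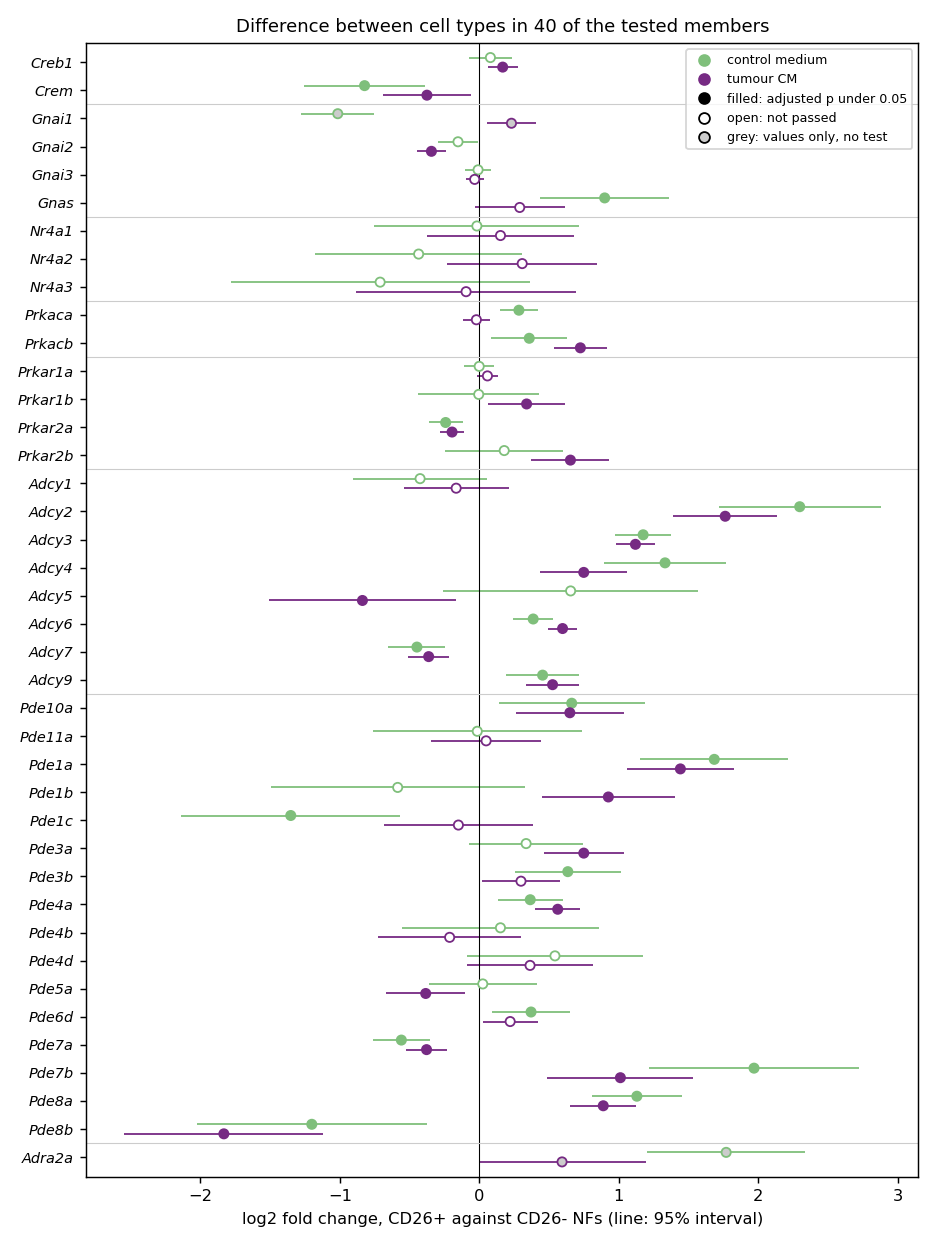
Log2 fold change, CD26+ against CD26- NFs (horizontal axis), of 40 tested members in control medium (green) and tumour CM (purple), grouped by role, with 95% intervals; filled points had an adjusted p under 0.05 by edgeR and the grey points of Adra2a and Gnai1 carry no test. Adcy2, Adcy3, Adcy4, Adcy6 and Adcy9 lie right of 0 in both media, and Adcy7, Pde7a and Pde8b left of it.

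The last comparison asked whether the tumour line mattered, over the 12 tumour CM libraries with the cell type as a term (40 members and 13344 genes tested). By edgeR, 13 members differed among lines, or 32.5% of the 40, where 6.56% of all genes did. They included the 3 Nr4a genes, 8 phosphodiesterases (Pde10a, Pde7b, Pde4d, Pde1a, Pde8b, Pde3b, Pde8a and Pde4b) and Adcy5. The test asks for differences that both cell types share. In 12 of these 13 genes line 13/17 gave the lowest level in CD26- and in CD26+ NFs, and in 11 of them line 13/138 gave the highest in CD26- NFs and in 11 the highest in CD26+ NFs. Over all 40 members the same line was lowest in both cell types in 20.

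Nr4a3 (adjusted p = 0.00261, edgeR) had 3.44 CPM with CM of line 13/17 and 23.6 CPM with 13/138 in CD26- NFs, beside 17.5, 17.9 and 18.2 CPM in control. In CD26+ NFs it had 3.34 and 17.5 CPM with those lines, beside 9.87, 11.0 and 11.9 CPM in control. Nr4a2 (adjusted p = 0.00325, edgeR) had 7.21 and 25.1 CPM in CD26- and 8.72 and 30.5 CPM in CD26+ NFs, with controls of 27.3 to 30.3 and 20.6 to 21.5 CPM. Nr4a1 had 21.7 and 56.1 CPM, and 19.0 and 79.2 CPM, with controls of 48.9 to 63.5 and 54.3 to 58.0 CPM. With line 13/17 all 3 genes were below every control in both cell types, and with 13/138 they were above every control in CD26+ NFs. The mean effect of tumour CM on these genes was not called in either cell type. These are the genes of the promoters printed above. Over the members a core motif was present in 7 of 22 promoters (31.8%) and 7 of 11 genes (63.6%) that differed among lines, and in 15 of 45 promoters (33.3%) and 11 of 22 genes (50%) that did not pass that test. The counts by promoter and by gene thus differ in direction. Over all genes the shares were 20.8% of promoters and 23% of genes, and the members have more promoters per gene.

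Pde4d (adjusted p = 0.0052, edgeR) had 32.3, 54.1, 58.6 and 71.3 CPM in CD26- NFs with CM of lines 13/17, 13/90, 18/12 and 13/138, and 44.6 and 60.1 CPM with 10/221 and 13/44. In the same order it had 31.3, 65.5, 93.1, 95.3, 51.4 and 77.0 CPM in CD26+ NFs. All 12 values were below the lowest control of the same cell type, 79.2 and 109 CPM. Pde4b had 28.4 CPM with line 13/17 and 51.9 to 60.9 CPM with the other lines in CD26- NFs, and 16.9 CPM and 35.5 to 75.8 CPM in CD26+ NFs. Pde10a (adjusted p = 0.00328, edgeR) ran from 10.9 to 28.6 CPM and from 17.5 to 39.8 CPM between lines 13/17 and 13/138. Pde7b (adjusted p = 0.0042, edgeR) had 5.20 CPM with 13/17 in CD26- NFs, against 8.35 to 14.6 CPM with the other lines, and 7.96 CPM against 18.5 to 27.5 CPM in CD26+ NFs. Without both libraries of line 13/17, 3 members still differed among the remaining lines, Nr4a3, Pde4d and Pde1a.

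The members that rose with tumour CM did not pass the test among lines, Prkar2b, Prkar1b, Pde11a and Pde3a among them. Prkar2b was above control with each line, by 0.63 to 1.45 on the log2 scale in CD26- and by 1.26 to 1.96 in CD26+ NFs. Without a filter on low counts Prkar2b, Prkar1b and Pde3a were called too, with Adcy1, Crem, Pde1b and Prkacb. DESeq2 also called Prkar1b among lines.

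**Figure D5:**
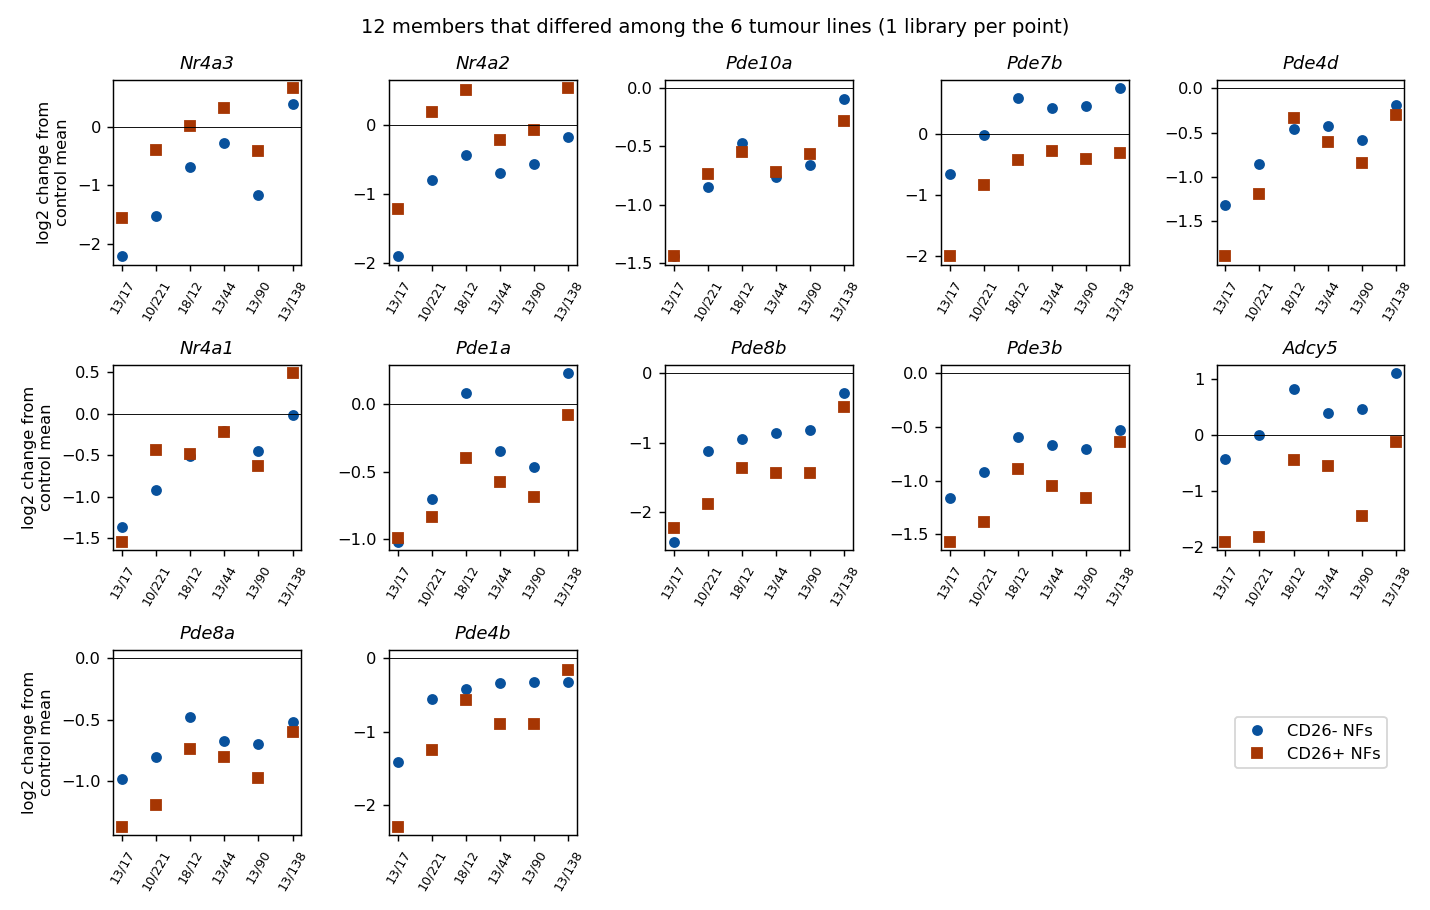
Log2 change from the mean control of the same cell type (vertical axis, pseudocount 0.5 CPM) for each tumour line (horizontal axis) in 12 of the members that differed among lines; circles are CD26- and squares CD26+ NFs, 1 library per point. Line 13/17 is lowest in both cell types in all 12 genes, and line 13/138 highest in 11 in each.

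Other genes of the route were taken from lists made with earlier results known. The shares of all genes called with tumour CM, as given above, were 7.88% higher and 7.28% lower in CD26- NFs, and 15.2% and 13.4% in CD26+ NFs, and the counts of each list stand beside these. The list of Gs-coupled receptors also holds Ramp1, Ramp2 and Ramp3, which encode partners of receptors. Of its 14 genes tested, 3 were higher and 1 lower with tumour CM in CD26- NFs, and 4 and 2 in CD26+ NFs. The adenosine receptor Adora2b, at 6.71 ± 0.754 CPM (SD, n = 3) in CD26- control and 21.3 ± 4.07 (SD, n = 6) in tumour CM, and at 4.43 ± 0.171 and 32.6 ± 12.0 CPM in CD26+ NFs, had log2 fold changes of 1.67 ± 0.29 and 2.88 ± 0.31 (SE; adjusted p = 0.00142 and 4.28e-06, edgeR). The prostacyclin receptor Ptgir rose in both cell types, in CD26- NFs from 12.2 ± 0.95 to 36.6 ± 10.2 CPM (log2 fold change 1.59 ± 0.27 SE, adjusted p = 0.00129, edgeR) and in CD26+ NFs from 11.8 ± 1.86 to 37.2 ± 11.3 CPM (1.65 ± 0.27, adjusted p = 0.000251, edgeR). The list of Gi-coupled receptors also holds the atypical receptor Ackr3. Of its 16 genes tested, 3 were higher and 1 lower in CD26- NFs, and 5 and 3 in CD26+ NFs.

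Proteins of the Rgs family speed the switching off of G proteins. The list of regulators of G protein signalling counted here also holds Gpsm and Ric8 genes, which are not of that family. Beside the same shares of all genes, 3 of 16 tested were higher and 1 lower with tumour CM in CD26- NFs, and 5 and 0 in CD26+ NFs. Rgs16 rose in CD26+ NFs from 35.1 ± 6.73 to 135 ± 46.6 CPM and Rgs3 from 10.9 ± 0.40 to 30.5 ± 5.76 CPM. Both also passed the test of the difference in CM effect (adjusted p = 0.0225 and 0.0106, edgeR). Of 14 further cAMP-responsive targets, 2 were higher and 0 lower with tumour CM in CD26- NFs, and 2 and 2 in CD26+ NFs, near the shares of all genes. The median log2 fold change of these targets was -0.16 and -0.03.

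Between the cell types in control medium, the PKA anchor Akap12 (810 ± 27.3 CPM in CD26-, 297 ± 27.8 in CD26+ NFs; SD, n = 3 each), the PKA inhibitor Pkia (17.5 ± 0.65 and 6.26 ± 0.674 CPM) and Rapgef3, the cAMP sensor Epac1 (22.9 ± 1.56 and 6.18 ± 0.986 CPM), were lower in CD26+ NFs, by log2 fold changes of -1.45, -1.48 and -1.89. All 3 were lower in tumour CM as well, where Akap12 stood at 655 ± 40.8 and 275 ± 43.2 CPM. The Gi-coupled sphingosine phosphate receptors S1pr1 and S1pr3 were higher in CD26+ control, S1pr3 at 206 ± 17.2 against 80.7 ± 2.37 CPM. Over their lists, 5 of 16 Gi-coupled receptors were higher and 7 lower in CD26+ control, and 3 of 13 anchors and PKA inhibitors were higher and 5 lower, beside the 25% and 25.4% of all genes. These cell-type values carry the same difference in epithelial markers.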

How the data were processed

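RNA-seq was made from 18 cultures of sorted normal fibroblasts (stranded mRNA libraries; the paper's methods name single-end and paired-end runs and do not say which these had). The deposited values are raw counts per gene, which the authors made with HISAT2 2.1.0 and HTSeq on GRCm38, as the processing notes name them. The strand setting of the counting is not given in the sources used here. Members and lists were chosen with earlier results of these data known.

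Results of 1 member that passed the filter, which is in the counts of members, are not reported here.

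Counts of 55486 genes were filtered by edgeR 4.0.16 (filterByExpr by group, 14273 genes left), scaled by TMM and fitted with 4 groups in R 4.3.3. Quasi-likelihood tests were adjusted by Benjamini-Hochberg, with a threshold of 0.05, and SE was the log2 fold change over the root of F. Tumour lines were compared over the 12 tumour CM libraries with the cell type as a term. CPM are counts scaled to 1000000 of the TMM-adjusted library size. The scripts were tested on simulated data. Genes named with full values were, per comparison, at most 8 members in each direction past the threshold by smallest p, at most 5 for the lines and at most 3 pathway genes in each direction. For other members the values given were chosen after they were seen.

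Libraries held 9725723 to 14585349 counts, and the common biological coefficient of variation was 0.117. Deviations from group means of cultures with CM of the same line correlated across cell types at 0.315 to 0.514 in 6 of 6 pairs, each above the values of its CD26- culture with CD26+ cultures of other lines, so the line, which the labels give, pairs the samples. The fits were repeated with the study's log2 limit, the line as replicate block, an epithelial covariate, 2 other scalings (upper quartile, RLE), without the filter, with DESeq2 1.42.0 and without single libraries. Leaving out both libraries of line 13/17 or 13/138 in the group comparisons was added after seeing the data.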

Additional observations from a re-analysis of the deposited data

Results flagged for a closer look

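Among 70 groups of 6 tumour CM libraries, 6 had a library far from the other 5, by a gap to the nearest value divided by the range above Dixon's critical value. Chance marks about 1 group in 20. In CD26- NFs the library of line 13/17 was lowest for Crem (ratio 0.665, 7.13 CPM against 11.1 to 13.8), Nr4a2 (0.634, 7.21 against 16.0 to 25.1 CPM) and Pde4b (0.788, 28.4 against 51.9 to 60.9 CPM). In CD26+ NFs it was lowest for Pde7b (0.677, 7.96 against 18.5 to 27.5 CPM). Gnai2 was highest in the CD26- library of line 13/44 (0.761, 547 against 512 to 520 CPM). Prkaca was highest in the CD26+ library of line 13/138 (0.722, 117 against 102 to 106 CPM).

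The effect of tumour CM differed between the cell types for Prkaca, by -0.31 on the log2 scale (adjusted p = 0.0286, edgeR).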

How the results depend on the processing

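With the study's log2 limit the members past both thresholds were 0 and 2 for tumour CM in CD26- and CD26+ NFs (Pde1b, and Adra2a, which is not read as a call), 2 and 0 between cell types in control and tumour CM. None (0) was called for the difference in CM effect. With the epithelial list as a covariate they were 8 for tumour CM in CD26- NFs, 8 between cell types in control and 5 in tumour CM, where Pde7a turned to 0.031 (log2). That list also separates the cell types, the share of all genes called with it is not given here, and the cause was not tested. Without a filter the lines had 20 calls, and the difference in CM effect had 1, which was Gnai1. All counts for that difference other than the 0 include Gnai1, from which nothing is read. The difference in CM effect had 13 calls with the line as replicate block, 5 with DESeq2 and 5 without both libraries of line 13/138. The block was also fitted between cell types in tumour CM, with 31 calls in place of 26.

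Leaving out 1 library gave 8 to 16 calls for tumour CM in CD26- NFs, 12 to 23 in CD26+ NFs, 21 to 24 between cell types in control, 23 to 26 in tumour CM, and for the unequal effect of tumour CM 1 to 5. Leaving out 1 line gave 3 to 15 calls among lines, the 3 without 13/17. The difference in CM effect had 5 calls without CD26+ replicate 18, and 1, Gnai1 alone, without CD26- control replicate 1 or CD26+ control replicate 11 or 12. Upper-quartile scaling gave 8 higher and 15 lower members in CD26+ NFs. Of 59 results for named genes other than Adra2a and Gnai1, 30 kept direction and call in all alternatives other than the log2 limit, 28 lost the call in some and 1 reversed. Members with few counts, such as Pde1b and Pde8b, have wide errors, and 12 members could not be tested at this depth.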
